A study of Homo sapiens with 42 samples.

Results

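The clustered histone genes are the genes that encode the histones H1, H2A, H2B, H3 and H4 and lie together in the genome, named HIST1 to HIST4 after their clusters. They were chosen by symbol, as every HIST1 to HIST4 gene whose name does not mark a pseudogene, and numbered 75 of the 57793 genes listed in every table. The 6 H1, 17 H2A, 23 H2B, 14 H3 and 15 H4 genes comprised 55 in cluster 1 on chromosome 6, 15 in cluster 2 and 4 in cluster 3, both on chromosome 1, and 1 in cluster 4 on chromosome 12. A further 14 genes with pseudogene names were left out. Of the 75, GENCODE v29 classes 5 as pseudogenes (HIST2H2BA, HIST2H2BB, HIST2H2BC, HIST2H2BD and HIST3H2BA).

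Most of these genes are switched on when a cell copies its DNA, so that new chromatin can be packed: 2 copies each of H2A, H2B, H3 and H4 form the nucleosome core, and H1 binds the linker DNA between nucleosomes. Their transcripts have no introns and usually no poly(A) tail. They end in a short hairpin, the histone stem-loop, which the protein SLBP binds for processing, translation and decay, while NPAT drives their transcription in S phase. They are therefore seen fully only in total RNA libraries such as these, which were depleted of ribosomal RNA rather than selected for poly(A).

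The 42 libraries came from 5 B-cell acute lymphoblastic leukaemia lines with altered NSD2, a methyltransferase that places 2 methyl groups on lysine 36 of histone H3. In Reh (2 libraries per arm) and 697 (3 per arm), cells overexpressed mutant NSD2 with the E1099K substitution (EK) or wild-type NSD2 (WT), or carried an empty vector (EV). In RS4;11 (titled RS411), RCH-ACV (titled RCH) and SEM, with 3 libraries per arm, cells carried the NSD2 short hairpin sh2, a hairpin known only from the titles as sh5, which the series text does not describe, or a non-targeting control (NT). All are engineered cell lines, and the labels name neither a promoter nor clones, nor say that replicates were grown apart. The p-values therefore rest on library-to-library spread that may be technical.

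NSD2, listed as WHSC1, followed the labels. Its mean in Reh was 1656 counts per 1000000 assigned reads (CPM) with EK and 1711 with WT, against 578.5 with EV. In 697 it was 1823 CPM with EK and 1949 with WT, against 200.2 with EV. In RS411 it was 186.9 CPM with sh2 and 172.3 with sh5, against 310.9 with NT, and in RCH 203.8 and 194.8 CPM, against 334.9 with NT. In SEM it was 171.6 CPM with sh2 and 141.4 with sh5, against 345.9 with NT. The differences passed the test over all genes in Reh, 697 and SEM, but not in RS411 (adjusted p = 0.118 with sh2 and 0.164 with sh5) or RCH (adjusted p = 0.0952 and 0.508). Assigned reads ran from 21876505 to 67651596 per library. The 8 B-lineage markers summed to between 1361 and 2617 CPM in every library, although VPREB1, a surrogate light chain gene, was at 0 in Reh. The erythroid markers summed to at most 0.0923 CPM. Sums of T and NK cell markers were highest in RS411, at 36.6 to 43.9 CPM. Myeloid markers reached 54.4 CPM in SEM. Stromal and epithelial markers reached 24.9 CPM in RCH and 18.8 in RS411, in sh5 replicate 1.

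The sequence of the stem-loop shows what the transcripts share. A GENCODE v29 transcript of 34 of the 75 genes held it. Many of the other models stop at or near the coding end, so its absence there says nothing of the gene. The most frequent form was carried by 18 genes. The stem-loops of genes described below, and of HIST1H2AE and HIST1H4H as examples from cluster 1, are given 5′ to 3′ as DNA letters, with the 16 bases of the hairpin in capitals and up to 5 bases on either side.
HIST1H2AE: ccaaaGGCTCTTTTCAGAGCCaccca
HIST3H2BB: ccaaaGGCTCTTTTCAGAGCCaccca
HIST3H2A: ataaaGGCTCTTTTCAGAGCCaccta
HIST1H4H: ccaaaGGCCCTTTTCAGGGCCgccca
HIST4H4: caaaaGGCCCTTTTCAGGGCCcccaa
HIST2H4A: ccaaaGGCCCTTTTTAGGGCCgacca
HIST2H4B: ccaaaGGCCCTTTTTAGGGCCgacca
HIST2H4A and HIST2H4B are near-identical copies, and their hairpins and flanks are the same letters. Reads of such copies can be split between them or dropped in counting. The stem-loop lay 51 bases before the annotated end in HIST1H2AE, 240 in HIST2H4B and 1917 in HIST3H2BB, whose model runs on well past the hairpin.

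Promoters are shown because the genes moved together across libraries and because HIST3H2A and HIST3H2BB, described below, are neighbours. The RefSeq table held a promoter for 60 of the 75. The motif CCAAT, searched on both strands between 250 bases before and 50 bases after the start, was found in 50 of the 60 (83.3%), against 34.6% of all 35116 promoters. TATAAA was found in 40 (66.7%), against 11.5%. Below are the 120 bases before the start of 4 genes in assembly GRCh38.p14, with the motifs on either strand in capitals. HIST1H1B is on the minus strand at chr6:27867589-27867708 and HIST1H2AE on the plus strand at chr6:26216801-26216920. HIST3H2A is on the minus strand at chr1:228457874-228457993, and its neighbour HIST3H2BB on the plus strand at chr1:228457983-228458102. These last windows overlap, so the divergently placed genes share 1 upstream region.
HIST1H1B: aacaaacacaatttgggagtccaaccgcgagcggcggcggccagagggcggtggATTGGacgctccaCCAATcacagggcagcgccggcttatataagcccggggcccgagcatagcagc
HIST1H2AE: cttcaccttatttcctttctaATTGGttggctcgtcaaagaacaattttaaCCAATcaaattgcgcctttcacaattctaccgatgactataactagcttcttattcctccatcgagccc
HIST3H2A: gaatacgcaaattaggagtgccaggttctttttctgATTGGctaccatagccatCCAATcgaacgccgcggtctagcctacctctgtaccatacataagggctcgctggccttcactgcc
HIST3H2BB: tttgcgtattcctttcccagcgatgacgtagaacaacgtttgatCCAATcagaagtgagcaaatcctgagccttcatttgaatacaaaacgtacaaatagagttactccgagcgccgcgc
CCAAT, the motif of the factor NF-Y, stands once on each strand in the first 3 windows and once in that of HIST3H2BB. TATAAA is in none of the 4 windows. A match describes letters, not binding.

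Which histone genes these leukaemia cells used was nearly the same in all 5 lines. Of the 75 genes, 46 had a mean of at least 100 CPM in every line, and 16 stayed under 5 CPM in every line, 9 of them under 1 CPM. The lines come from separate tables, so levels between them are a description only. By the mean over the 4 lines with raw counts, the gene with the most reads was HIST1H1B for H1, HIST1H2AG for H2A, HIST1H2BD for H2B, HIST1H3B for H3 and HIST1H4C for H4. Single lines differed: in Reh, HIST1H1C averaged 1838 CPM and HIST1H2BH 958.3, above HIST1H1B and HIST1H2BD. HIST1H2AE led the H2A genes of SEM, HIST1H2BH its H2B genes, and HIST1H2BG and HIST1H4E their families in 697. HIST1H1B averaged 1751 CPM in Reh, 1375 in 697, 1888 in RS411, 2315 in RCH and 2287 in SEM. HIST1H4C averaged 1095, 567.0, 800.1, 925.4 and 928.7 CPM in the same order. The H1 genes took a mean of 0.590% of reads in Reh and 0.720% in RCH, and the H4 genes 0.287% in 697 and 0.541% in SEM.

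**Figure D1:**
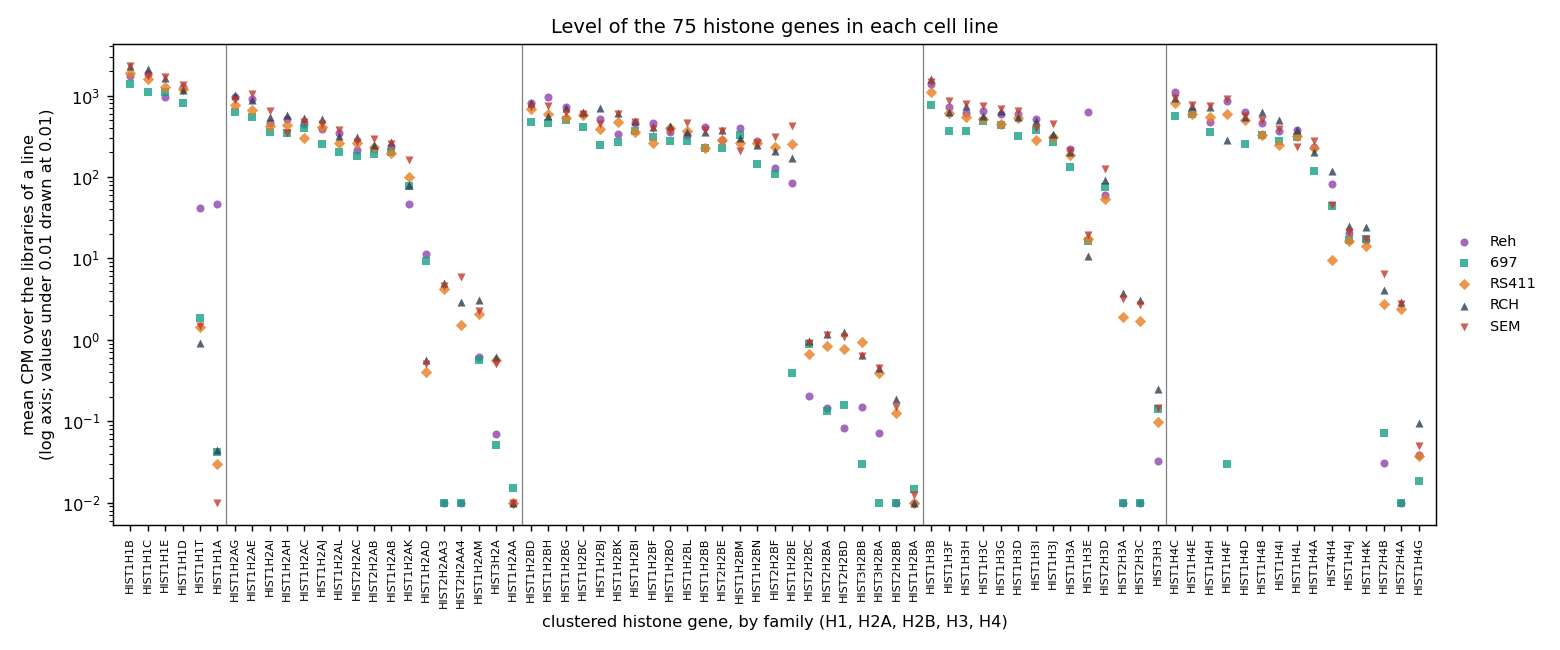
Mean level of each of the 75 clustered histone genes in each line, in CPM on a log axis, grouped by histone family and ordered within a family by the mean over lines. Most points of a gene lie close together, and HIST1H4F in 697 and HIST1H1A, HIST1H1T and HIST1H3E in Reh stand apart.

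A few genes departed from this shared pattern, and these were picked after their levels were seen. HIST1H4F, an H4 gene, had 0 to 5 reads in the 9 libraries of 697, against 18105 to 28202 in the 6 of Reh. It averaged 854.2 CPM in Reh, 586.1 in RS411, 282.5 in RCH and 917.1 in SEM. Its neighbour HIST1H1D, a linker histone gene, averaged 802.1 CPM in 697. HIST1H2BE, an H2B gene, had 6 to 53 reads in 697, where its neighbours HIST1H2BD and HIST1H4D averaged 478.2 and 251.9 CPM. In the other lines HIST1H2BE averaged between 84.2 and 418.5 CPM. Both genes were thus near silent in 697 in all 3 arms.

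Reh showed the reverse for 3 genes. HIST1H1A, a linker histone gene, averaged 46.8 CPM in Reh and at most 0.0442 CPM in the other lines. HIST1H1T, the testis linker histone, averaged 41.6 CPM in Reh and between 0.902 and 1.87 CPM elsewhere. HIST1H3E, an H3 gene, averaged 626.9 CPM in Reh and between 10.6 and 19.2 CPM elsewhere. Within Reh the arms overlapped for these genes: HIST1H1A had 1528 and 800 reads with EK and 1466 and 789 with WT, against 1774 and 945 with EV. HIST1H1T had 56.83 and 28.59 CPM with EK and 58.45 and 33.14 with WT, against 47.4 and 25.37 with EV. In same-numbered libraries it was thus higher than EV with both EK and WT. The other testis genes were at or near 0, with line means of at most 0.0150 CPM for HIST1H2AA and 0.0148 CPM for HIST1H2BA and of at most 0.247 CPM for HIST3H3. Genes of cluster 2 that have near-identical copies (HIST2H2AA3, HIST2H2AA4, HIST2H3A, HIST2H3C, HIST2H4A and HIST2H4B) were at most 0.0708 CPM in Reh and 697 but between 1.53 and 6.46 CPM in the other lines. The sources used here do not say how reads that fit both copies were counted. Other genes also split Reh and 697 from the rest. HIST1H2AD averaged 11.33 and 9.413 CPM there and between 0.4027 and 0.5695 in the other lines. HIST2H2BD, HIST3H2A, HIST3H2BA and HIST3H2BB were at most 0.1575 CPM there and between 0.3953 and 1.264 in the other lines. HIST4H4 ran from 9.485 CPM in RS411 to 119.3 in RCH.

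The share of all assigned reads that fell in the 75 genes differed more between single libraries of an arm than between arm means. In Reh it was 3.36% and 2.44% with EK and 3.13% and 2.48% with WT, against 3.61% and 2.55% with EV. Replicate 1 was high and replicate 2 low in every arm. In 697 it was 1.65%, 1.68% and 1.75% with EK and 1.89%, 2.00% and 1.85% with WT, against 2.39%, 1.96% and 1.84% with EV. The EK libraries of 697 were below all of its other libraries.

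In RS411 the share was 2.37%, 2.82% and 2.56% with sh2 and 2.21%, 2.71% and 2.09% with sh5, against 2.12%, 3.08% and 2.47% with NT. Replicate 2 was the highest of each arm, and the arms overlapped. In RCH it was 2.35%, 3.23% and 2.90% with sh2 and 3.50%, 3.24% and 3.38% with sh5, against 2.42%, 3.38% and 3.31% with NT. Replicate 1 of sh2 and of NT lay lowest. In SEM it was 3.22%, 3.25% and 3.14% with sh2 and 2.94%, 2.95% and 3.42% with sh5, against 3.30%, 2.81% and 3.21% with NT, again with overlapping arms.

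**Figure D2:**
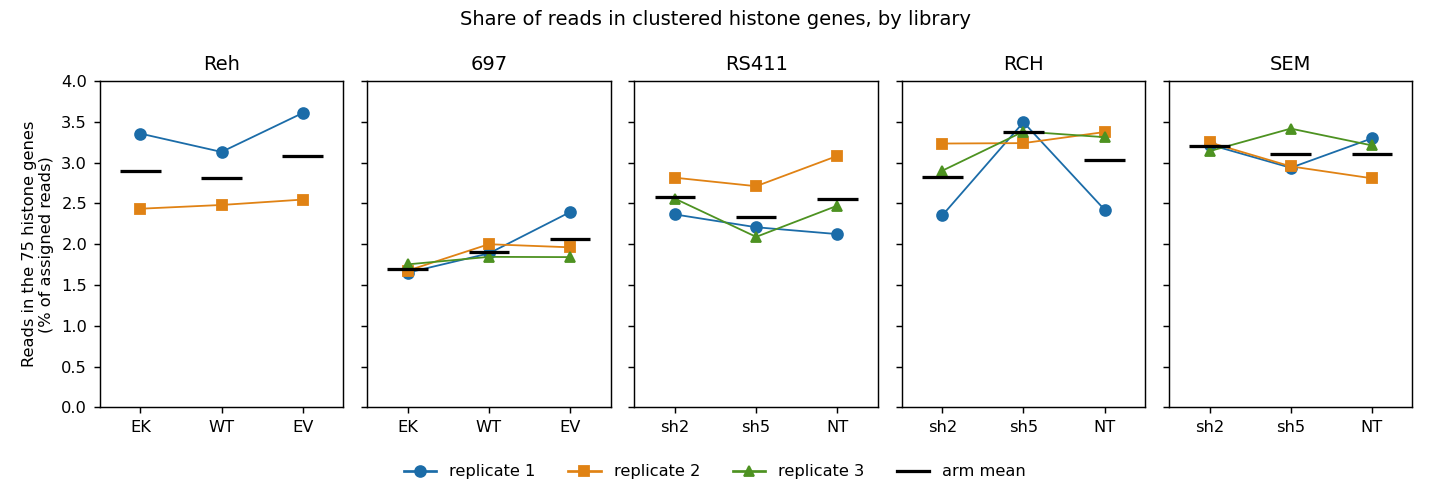
Percentage of assigned reads in the 75 clustered histone genes in each library, by line and arm, with lines joining libraries of the same replicate number and black bars for arm means. In Reh the replicate 1 libraries (3.13% to 3.61%) all lie above the replicate 2 libraries (2.44% to 2.55%), and in 697 the 3 EK libraries lie lowest.

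The largest ratio between libraries of 1 arm was 1.42 in Reh, 1.30 in 697, 1.45 in RS411, 1.39 in RCH and 1.17 in SEM. The ratio of the highest to the lowest arm mean was 1.10, 1.22, 1.10, 1.19 and 1.03 in the same order. The genes moved as a body: in Reh, of the 57 genes with a mean of at least 5 CPM, 54, 55 and 57 lay above the line's mean in replicate 1 of EK, WT and EV, and 0, 1 and 2 in replicate 2. In RS411, all 54 such genes lay above the line's mean in NT replicate 2, and 1 of 54 in sh5 replicate 3. In RCH, 2 of 54 lay above it in sh2 replicate 1 and 1 of 54 in NT replicate 1, against 42 of 54 in sh5 replicate 1.

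**Figure D3:**
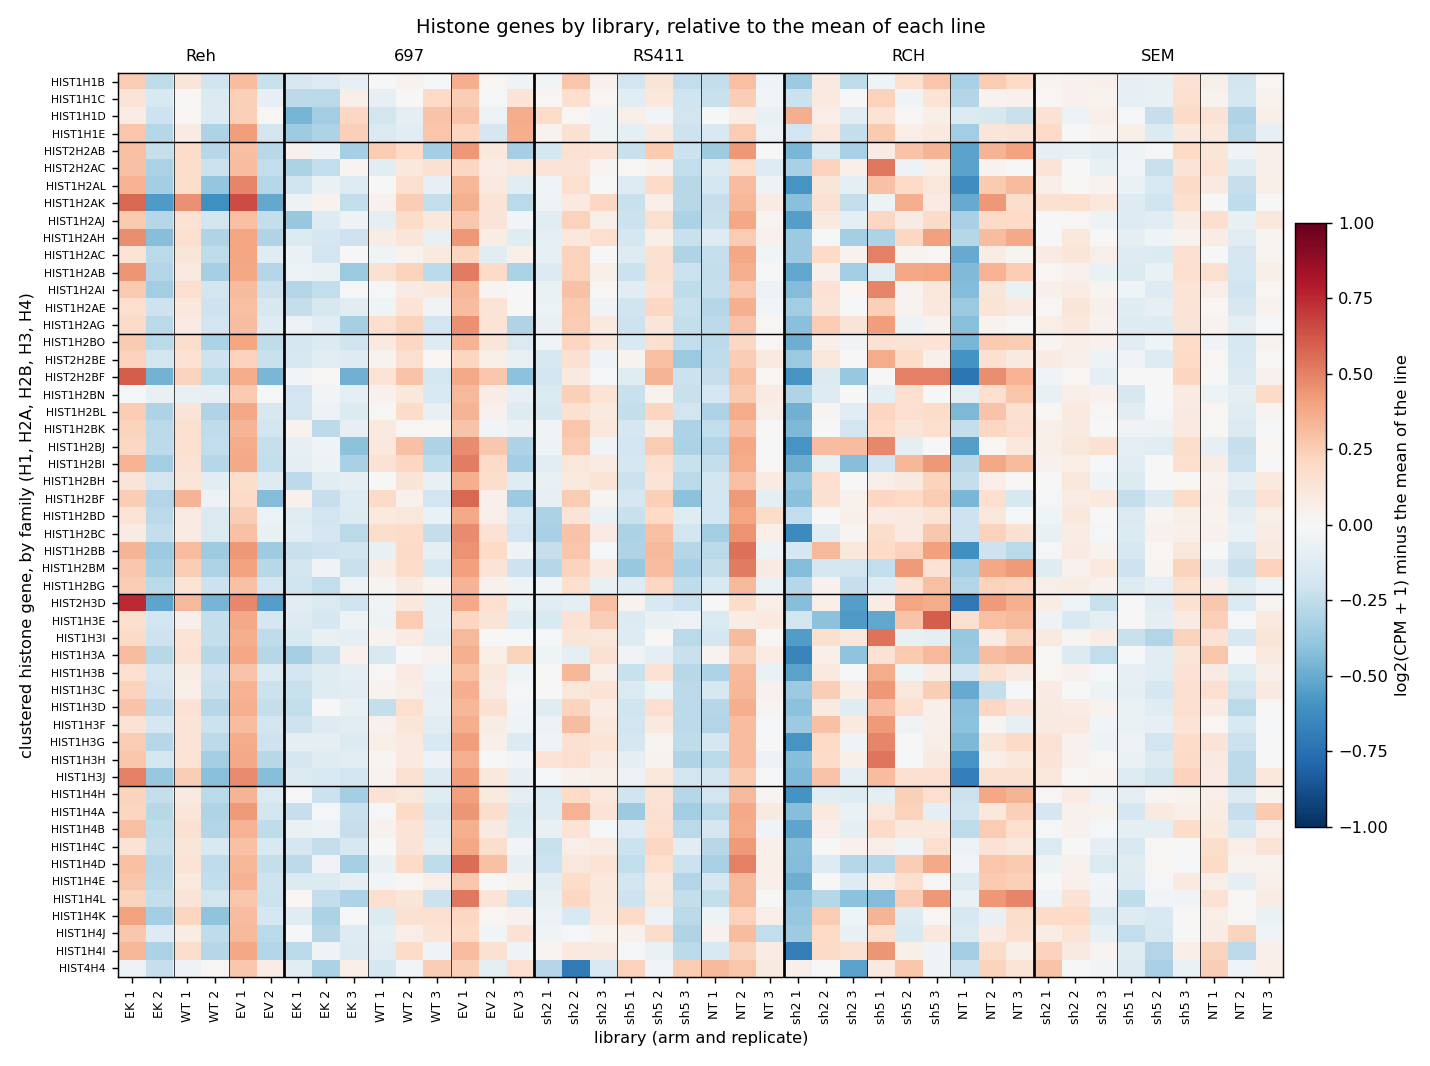
Level of the 52 clustered histone genes with a mean of at least 5 CPM in every line, in each of the 42 libraries, as log2(CPM + 1) minus the mean of the line, with rows grouped by histone family. Whole columns are red or blue, as in Reh EV replicate 1, 697 EV replicate 1, RS411 NT replicate 2 and, in blue, RCH NT replicate 1.

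Other genes of DNA replication, from a list of 34 S-phase genes such as those for MCM and replication factor C subunits, swung less. Their summed level differed at most 1.08-fold between libraries of an arm in Reh, 1.25-fold in 697, 1.14-fold in RS411, 1.16-fold in RCH and 1.08-fold in SEM. Genes of the G2 and M phase list differed at most 1.63-fold within an arm in 697 and 1.54-fold in RS411. Both lay above the 1.30-fold and 1.45-fold of all 75 histone genes there. In Reh, RCH and SEM that list differed 1.16-fold, 1.29-fold and 1.08-fold, below the 1.42-fold, 1.39-fold and 1.17-fold of the histone genes. Replication-independent histone variant genes, which are expressed throughout the cycle and make polyadenylated mRNA, differed at most 1.23-fold within an arm. A list of 20 other RNAs without a poly(A) tail, such as TERC, the telomerase RNA, and SCARNA2, differed between 1.21-fold (697) and 1.47-fold (RS411). The 6 histone genes known to give polyadenylated mRNA as well (HIST1H1C, HIST1H2AC, HIST1H2BC, HIST1H2BD, HIST1H2BK and HIST2H2BE) differed 1.29-fold in Reh and 1.48-fold in RS411, close to the 1.42-fold and 1.45-fold of all 75. The part of RNA quality or cell cycle stage in these swings was not tested.

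The linker histone genes of 697 did not all follow 1 pattern over the replicates. HIST1H1E had 858.7, 889.2 and 1298 CPM with EK and 996.7, 1015 and 1334 with WT, against 1280, 977.5 and 1417 with EV. HIST1H1D had 569.3, 617.7 and 909.7 CPM with EK and 691.8, 740.4 and 959.0 with WT, against 957.6, 757.0 and 1016 with EV. In both genes replicate 3 was the highest of its arm. HIST1H1B, whose values are given below, was highest in replicate 3 of EK but lowest in replicate 3 of WT and EV. HIST1H2AG, a core histone gene, had 599.1, 580.1 and 495.3 CPM with EK and 702.4, 733.6 and 548.9 with WT, against 858.9, 688.9 and 506.7 with EV, and replicate 3 was the lowest of each arm. The 25 genes of the G2 and M phase list summed to 4076 CPM in EK replicate 3, 3867 in WT replicate 3 and 3754 in EV replicate 3, the lowest of each arm.

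The question of whether raising or lowering NSD2 changed these genes was asked gene by gene, with p-values adjusted over all genes of a line. A gene is called where its adjusted p was under 0.05. Of the 75 genes, 58 passed the filter on low values in Reh, 57 in 697, 69 in RS411, 70 in RCH and 69 in SEM. The EK and WT arms share their EV libraries, and sh2 and sh5 their NT libraries.

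In Reh, edgeR called 0 of the 58 genes with EK against EV, where 0.213% of all genes were called, and 0 with WT against EV, where 0.219% were called. DESeq2 also called 0 in both, where 208 and 139 of all 15972 genes were called. With edgeR 0 in both had an unadjusted p under 0.05, against 6.15% and 4.96% of all genes. The median log2 change was -0.05 with EK and -0.16 with WT. HIST1H3B had 1549 and 1218 CPM with EK and 1456 and 1193 with WT, against 1687 and 1253 with EV, and the arms overlapped. In same-numbered libraries the histone share with EK was 0.930 and 0.956 times that with EV, and with WT 0.868 and 0.974 times. Because replicate 1 was high in every arm, leaving out 1 of the 2 libraries of an arm unbalances the replicates and moves the medians by construction. That of EK was -0.38 without EK replicate 1, -0.30 without EV replicate 2, 0.22 without EK replicate 2 and 0.29 without EV replicate 1. That of WT was -0.43 when EV replicate 2 was left out, -0.35 when WT replicate 1 was, 0.02 when WT replicate 2 was and 0.19 when EV replicate 1 was. EK against WT gave 0 calls with edgeR and DESeq2, which called 0% and 2 of all 15972 genes. In this comparison 0 histone genes had an unadjusted p under 0.05 with edgeR, against 1.63% of all genes. Its median of 0.10 was -0.22 without EK replicate 1 and -0.07 without WT replicate 2.

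In 697 with EK every tested histone gene lay lower than with EV, but none passed the test. The median log2 change of the 57 genes was -0.33, against -0.02 over all genes, and the changes ran from -0.52 for HIST1H4D to -0.09 for HIST2H2BC. HIST1H4C, an H4 gene, had 499.6, 475.6 and 502.9 CPM with EK and 565.0, 613.7 and 527.1 with WT, against 734.6, 633.4 and 551.4 with EV. The EK libraries did not overlap the others, and its log2 change with EK was -0.42 ± 0.14 (SE, limma, adjusted p = 0.80). HIST1H1B had 1226, 1248 and 1295 CPM with EK and 1372, 1404 and 1346 with WT, against 1756, 1390 and 1336 with EV, a log2 change of -0.29 ± 0.14 with EK (limma, adjusted p = 0.986). Again no EK library reached any other.

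Limma called 0 of the 57 genes with EK, where 0.172% of all genes were called, and the smallest adjusted p was 0.673 (HIST1H3A). At an unadjusted p under 0.05 there were 22 of 57 (38.6%), all lower, against 4.88% of all genes. EdgeR on the recovered reads also called 0, where 24 of all 17073 genes were called. The EK libraries all lay below the EV libraries for 21 of 57 (36.8%), against 2.86% of all genes. In the same-numbered pairs, 53, 53 and 46 of the 53 genes with at least 5 CPM were lower with EK in replicates 1, 2 and 3, with ratios of the summed share of 0.690, 0.854 and 0.952.

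Same-numbered libraries of 697 were paired (they deviated together). Blocking on that number gave 0 calls with EK (0.987% of all genes), 50 of 57 had an unadjusted p under 0.05 (16.5% of all genes), and the smallest adjusted p was 0.0798 (HIST1H4D). In the same comparison without the block, 32 of 34 S-phase genes and 24 of 25 G2 and M genes lay below 0, with medians of -0.18 and -0.27. None of either list was called, where 0.172% of all genes were called. The 13 mitochondrially encoded mRNAs summed to 2488, 6215 and 2223 CPM with EK, against 2018, 3340 and 2752 with EV. The part of these lists in the result was not tested. Without EV replicate 1, the median of the histone genes with EK was the nearest to 0 of all left-out libraries, at -0.18, and it kept its sign.

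With WT the values of 697 lay nearer to those of EV. Limma called 0 of 57 genes against EV, where 0.190% of all genes were called, and 0 had an unadjusted p under 0.05, against 2.87% of all genes. The median was -0.12, but 0.04 without EV replicate 1 and -0.25 without EV replicate 3. With the block 0 were called, where 1.08% of all genes were. EK against WT gave a median of -0.20 with all 57 genes below 0, and limma called 0 of them and 0% of all genes. At an unadjusted p under 0.05 there were 0 genes, against 0.723% of all genes, and 11 of 57 with the block, against 5.60%.

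**Figure D4:**
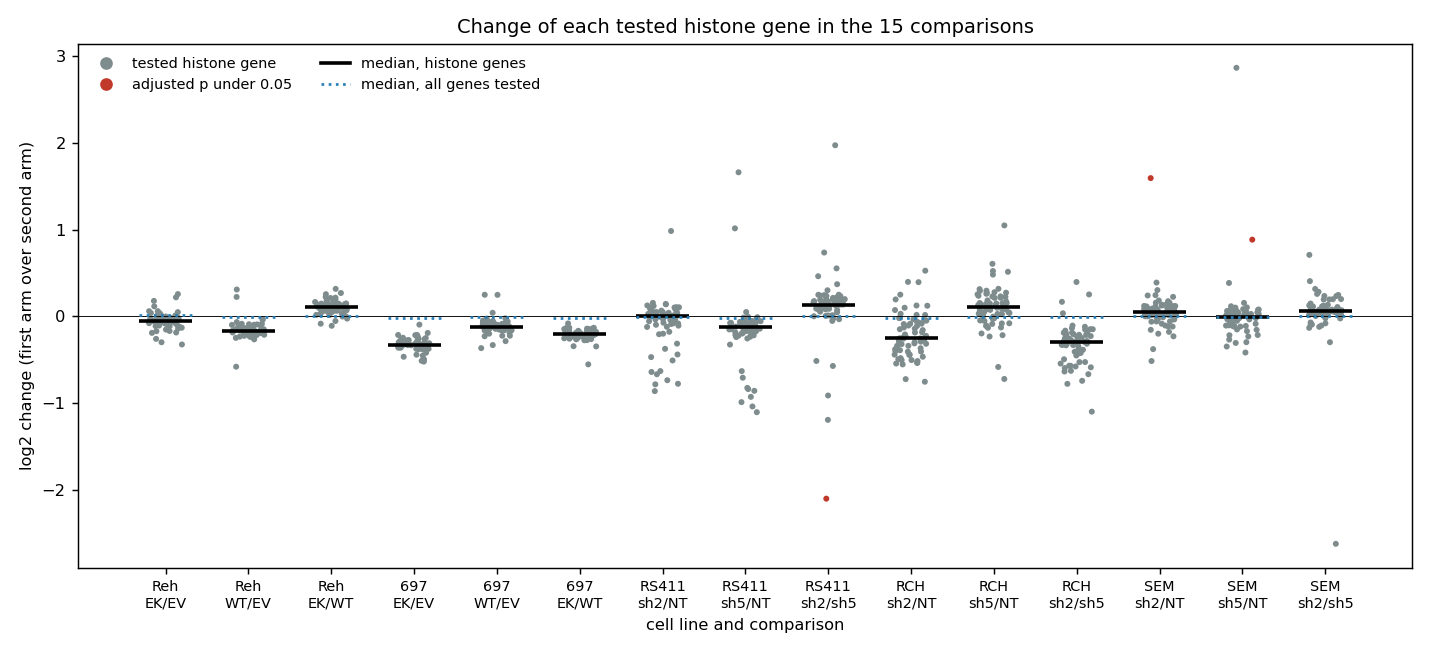
Log2 change of each tested histone gene in each of the 15 comparisons, first arm over second arm, with calls at an adjusted p under 0.05 in red, black bars for the median of the histone genes and dotted bars for that of all genes. The medians of the histone genes lie between -0.33 (697 EK over EV) and 0.14 (RS411 sh2 over sh5), with -0.30 in RCH sh2 over sh5, -0.25 in RCH sh2 over NT and -0.20 in 697 EK over WT.

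In RS411 the bulk of the genes lay near their NT level with both hairpins. The median log2 change of the 69 tested genes was 0.01 with sh2 and -0.13 with sh5. edgeR called 0 genes with sh2, where 1.67% of all genes were called, and 0 with sh5, where 0.478% were called. At an unadjusted p under 0.05 there was 1 with sh2 and there were 5 with sh5, against 18.2% and 11.3% of all genes. DESeq2 called 1 in each, where 939 and 314 of all 17165 genes were called. Without NT replicate 2 the medians were 0.16 with sh2 and 0.05 with sh5, and without NT replicate 1 they were -0.13 and -0.26. HIST1H3B had 1109, 1392 and 1159 CPM with sh2 and 947.9, 1223 and 911.0 with sh5, against 892.2, 1386 and 1057 with NT, with overlapping arms.

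The smallest adjusted p-values of RS411 without the block belonged to a gene of cluster 3 and the gene of cluster 4. HIST3H2BB, an H2B gene whose promoter window is given above, had 19, 13 and 26 reads with sh2 and 80, 55 and 88 with sh5, against 14, 32 and 15 with NT. All 3 sh5 libraries were above the others. With sh2 against sh5 it was 1 call of 69, where 0.577% of all genes were called, at a log2 change of -2.10 ± 0.37 (edgeR, adjusted p = 0.0249). At an unadjusted p under 0.05 there were 3 of 69, against 12.8% of all genes. Without sh2 replicate 1 or 2, or sh5 replicate 1 or 3, its adjusted p was between 0.0986 and 0.128. With sh5 against NT its change was 1.66 ± 0.36 (adjusted p = 0.0785).

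HIST3H2A, the H2A gene that shares the upstream region with HIST3H2BB, had 0.832, 0.674 and 1.08 CPM with sh5, against 0.213, 0.732 and 0.360 with NT, and with sh2 it had 0.281, 0.320 and 0.532. NT replicate 2 lay within the sh5 range, and its log2 change with sh5 against NT was 1.02 ± 0.43 (edgeR, adjusted p = 0.392). HIST4H4, the only gene of cluster 4, had 7.35, 5.31 and 8.23 CPM with sh2 and 11.0, 9.05 and 11.2 with sh5, against 11.8, 11.4 and 9.90 with NT. The sh2 libraries lay below all others, at -0.63 ± 0.16 against NT (edgeR, adjusted p = 0.0745).

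The replicate number paired the libraries of RS411, and with it as a block HIST4H4 was called lower with sh2 against NT (-0.65 ± 0.13, edgeR, adjusted p = 0.0042), 1 gene of 69 where 14.5% of all genes were called. With sh5 against NT, where 5.41% were called, HIST3H2BB was called higher (1.69 ± 0.33, adjusted p = 0.00726) and HIST1H2BE lower (-0.23 ± 0.06, adjusted p = 0.0419). Between sh2 and sh5, where 9.06% were called, 5 genes were called. HIST1H4A (0.31), HIST1H3B (0.26) and HIST1H2BN (0.22) were higher in sh2, and HIST3H2BB (-2.13) and HIST4H4 (-0.58) lower.

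Values of the near-identical genes of cluster 2 in RS411 rested on single libraries. HIST2H2AA3 had 149, 90 and 696 reads with sh2 and 65, 106 and 44 with sh5, against 72, 227 and 80 with NT. Its log2 change of 0.99 with sh2 became -0.51 without sh2 replicate 3. HIST2H2AA4 had 88, 35 and 74 reads with sh2 and 27, 58 and 35 with sh5, against 31, 160 and 38 with NT, and its change of -1.10 with sh5 became -0.02 without NT replicate 2.

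In RCH, the tested genes lay lower with sh2 and a little higher with sh5. The median log2 change of the 70 genes was -0.25 with sh2, 0.11 with sh5 and -0.30 with sh2 against sh5, and medians over all genes lay within 0.02 of 0. Without NT replicate 3 or sh2 replicate 1 the median with sh2 was -0.10, without NT replicate 2 it was -0.13, without sh2 replicate 3 -0.14 and without NT replicate 1 -0.41. That with sh5 was -0.05 without NT replicate 1. EdgeR and DESeq2 called 0 genes in each. Of all 17468 genes, edgeR called 1.37%, 0.0229% and 0%, and DESeq2 called 1077, 92 and 193 genes. At an unadjusted p under 0.05 there were 10, 3 and 10 genes of 70 (14.3%, 4.29% and 14.3%), against 18.7%, 4.04% and 9.81% of all genes. The 6 stromal and epithelial markers summed to 24.9, 8.84 and 9.46 CPM with sh2 and 12.9, 4.78 and 1.99 with sh5, against 6.21, 2.67 and 4.45 with NT, nearly all from collagen genes, with EPCAM, KRT8 and KRT18 each at most 0.12 CPM. The 6 myeloid markers summed to 11.4, 16.1 and 10.7 CPM with sh2 and 18.8, 26.6 and 17.3 with sh5, against 17.6, 22.6 and 24.9 with NT, mostly from CSF1R, with S100A8 at 0. For both lists sh2 did not overlap NT, and their part in the result was not tested.

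The lowest changes with sh2 were in an H3 and an H4 gene. HIST1H3E averaged 7.62 ± 1.16 CPM with sh2, against 12.5 ± 0.79 with NT (SD, n = 3), a log2 change of -0.75 ± 0.30 (edgeR, adjusted p = 0.216). HIST1H4L had 274.6, 297.3 and 272.6 CPM with sh2 and 268.5, 429.8 and 490.9 with sh5, against 347.7, 490.5 and 511.1 with NT. The sh2 libraries lay below those of NT, at -0.72 ± 0.23 (edgeR, adjusted p = 0.146), but sh5 replicate 1 was lower still. HIST1H2AG overlapped between all arms, with 748.3, 1195 and 1093 CPM with sh2 and 1335, 966.9 and 1024 with sh5, against 748.7, 1022 and 1008 with NT. In RCH, 30 of 34 S-phase genes and all 25 G2 and M genes also lay below 0 with sh2. These lists had medians of -0.18 and -0.22 and no call (1.37% of all genes). Their part in the result was not tested.

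SEM had the largest share of genes called of the 5 lines and the smallest library-to-library range of the histone share. edgeR called 27.9% of all genes with sh2 against NT and 21.3% with sh5 against NT, but 1 histone gene of 69 in each, and it was HIST2H4B in both. The medians were 0.06 with sh2 and -0.01 with sh5. At an unadjusted p under 0.05 there were 7 and 5 of 69 genes (10.1% and 7.25%), against 37.4% and 32.7% of all genes. HIST1H1B had 2325, 2353 and 2362 CPM with sh2 and 2151, 2171 and 2523 with sh5, against 2381, 2010 and 2311 with NT. HIST1H3B had 1476, 1505 and 1436 CPM with sh2 and 1378, 1352 and 1610 with sh5, against 1546, 1341 and 1514 with NT. Both genes overlapped between arms. Markers of other cells moved with the hairpins in SEM. The 6 myeloid markers summed to between 32.5 and 47.0 CPM with sh2 and between 42.2 and 54.4 with sh5, against 13.5 to 20.6 with NT, mostly from CSF1R, with ELANE at 0. The T and NK cell markers summed to less with sh2, at 12.16 to 15.66 CPM, against 16.85 to 22.08 with NT. With sh5 they overlapped NT, at 16.03 to 21.47 CPM. The B-lineage markers summed to between 1361 and 1421 CPM with sh2 and between 1366 and 1429 with sh5, against 1650 to 1764 with NT. Their part in the results was not tested.

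HIST2H4B, an H4 gene, had 502, 310 and 285 reads with sh2 and 298, 242 and 153 with sh5, against 122, 128 and 111 with NT. In CPM these were 12.7, 9.54 and 7.53 with sh2 and 7.92, 6.41 and 4.04 with sh5, against 3.52, 3.53 and 2.97 with NT. Every knockdown library was above every NT library. It rose by a log2 change of 1.60 ± 0.25 with sh2 (edgeR, adjusted p = 0.000652) and 0.89 ± 0.25 with sh5 (adjusted p = 0.0298). The call with sh5 was lost without any 1 of NT replicates 1 to 3 or sh5 replicates 1 and 2, with adjusted p between 0.0752 and 0.105.

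Its copy HIST2H4A had 4.08, 2.89 and 2.14 CPM with sh2 and 2.58, 2.30 and 2.80 with sh5, against 2.82, 3.25 and 2.25 with NT, with a log2 change of 0.16 ± 0.22 with sh2 (edgeR, adjusted p = 0.656). Because their letters are nearly the same, the level of either copy is uncertain. In the other knockdown lines the arms overlapped for HIST2H4B. In RS411 it had 124, 68 and 147 reads with sh2 and 59, 118 and 80 with sh5, against 96, 199 and 79 with NT. In RCH it had 55, 124 and 112 reads with sh2 and 129, 101 and 95 with sh5, against 138, 105 and 514 with NT. These reads are not scaled for depth, which ran from 27767490 to 67651596 in RS411. In RCH it ran from 21876505 in sh2 replicate 1 to 54879265 in NT replicate 3. Whether SEM differs from these lines was not tested.

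**Figure D5:**
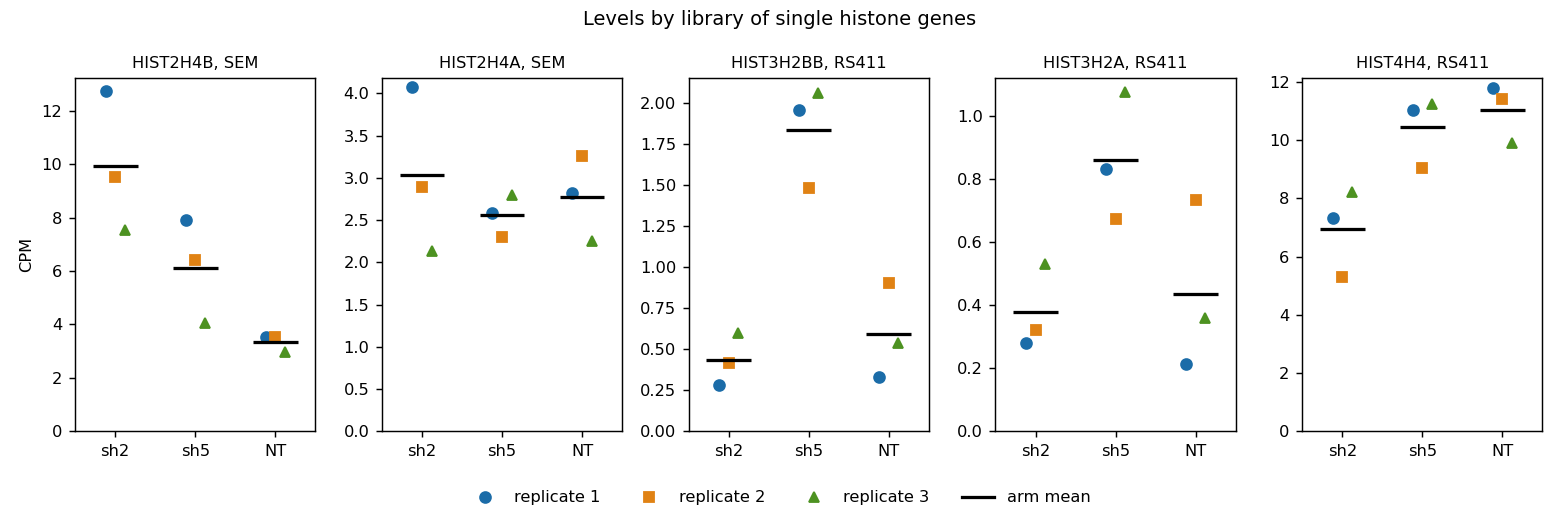
CPM by library of HIST2H4B and its copy HIST2H4A in SEM, and of HIST3H2BB, its neighbour HIST3H2A and HIST4H4 in RS411, with black bars for arm means and each vertical axis starting at 0. HIST2H4B lies above NT in all 6 knockdown libraries of SEM, HIST3H2BB is highest in the 3 sh5 libraries of RS411, and HIST4H4 is lowest in the 3 sh2 libraries.

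The replicate number also paired the libraries of SEM. With it as a block, 7 histone genes were called with sh2 against NT, where 37.9% of all genes were called. HIST2H4B (1.57), HIST1H2BJ (0.23) and HIST1H1E (0.18) were higher, and HIST1H4C (-0.18), HIST1H3E (-0.20), HIST1H3A (-0.23) and HIST1H1T (-0.52) lower. With sh5 against NT, where 32.8% were called, HIST2H4B (0.85) was higher and HIST4H4 (-0.26) and HIST1H4C (-0.16) lower. Between sh2 and sh5, edgeR called 0 genes without the block (12.4% of all genes), and DESeq2 called 1 (2258 of all 17042 genes). With edgeR 2 of 69 had an unadjusted p under 0.05 (23.4% of all genes). With the block, where 20.7% of all genes were called, HIST2H4B (0.72) and HIST4H4 (0.28) were higher in sh2.

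HIST1H4C was called lower with both hairpins under the block. It had 841.4, 924.3 and 870.7 CPM with sh2 and 833.4, 933.2 and 929.0 with sh5, against 1046, 968.7 and 1011 with NT. All 6 knockdown libraries were below the NT libraries, and without the block its change with sh2 was -0.18 ± 0.07 (edgeR, adjusted p = 0.0542). A single library set another value: HIST2H2AA4 had 101, 79 and 64 reads with sh2 and 69, 1385 and 102 with sh5, against 48, 93 and 66 with NT. Its change of 2.87 with sh5, the highest of SEM, was not called (edgeR, adjusted p = 0.173) and was 0.26 without sh5 replicate 2.

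Some genes had the highest or lowest change of several comparisons. HIST1H2AM, an H2A gene, was under 5 CPM in every line. It had the lowest log2 change in Reh with EK (-0.32) and WT (-0.58), in RS411 with sh2 (-0.86) and in SEM with sh5 (-0.42). It was also the lowest in 697 with EK against WT (-0.55). But it was the highest in 697 with WT (0.25) and in RCH with sh2 against sh5 (0.4). HIST1H1T had the highest in Reh with EK (0.26) and WT (0.31) and in RCH with sh5 (1.05). But it had the lowest in 697 with WT (-0.37), in RCH with sh2 against sh5 (-1.1) and in SEM with sh2 (-0.51). None of these changes of HIST1H2AM and HIST1H1T was called without the block. HIST2H4B had the lowest in RCH with sh5 (-0.72), which was not called and was -0.07 without NT replicate 3. Of the 6 genes that also give polyadenylated mRNA, none was called in any of the 15 comparisons without the block. The share of all genes called in these ran from 0% to 27.9%. In 697 with EK all 6 lay below 0, with a median of -0.28.

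The genes that make and handle histone mRNA were measured beside them, from a list of 23 genes for its transcription and 3′ processing. None was called in Reh, 697, RS411 or RCH, where between 0% and 1.67% of all genes were called in each comparison. SLBP, the stem-loop binding protein, had a mean of 76.5 CPM with EK and 83.2 with WT, against 83.5 with EV, in 697. In SEM it had 199.2 CPM with sh2 and 185.9 with sh5, against 183.9 with NT (log2 change with sh2 0.14 ± 0.06, edgeR, adjusted p = 0.101). NPAT had 87.7 CPM with sh2 and 83.7 with sh5, against 86.6 with NT, in SEM.

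In SEM, 3 of the 23 were called higher and 2 lower with sh2, and 4 higher and 1 lower with sh5, where 27.9% and 21.3% of all genes were called. LSM10, a subunit of the U7 particle that cuts histone pre-mRNA, rose with sh2 (10.2 ± 0.78 CPM, against 7.79 ± 0.44 with NT, SD, n = 3). LSM11, its partner in that particle, fell with sh5 (28.7 ± 0.73 CPM, against 38.6 ± 2.35 with NT). ZNF473, a zinc finger protein that also takes part in the 3′ processing, rose with sh2 by 0.25 ± 0.07 (edgeR, adjusted p = 0.0121) and with sh5 by 0.34 ± 0.07 (adjusted p = 0.00219). UPF1, a helicase needed for histone mRNA decay, rose with sh5 by 0.30 ± 0.07 (adjusted p = 0.00402).

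Of 12 replication-independent histone variant genes, 11 were tested in RS411, and 1 was called higher with sh2, where 1.67% of all genes were called. H1F0, the linker histone of non-dividing cells, had a mean of 4.62 ± 2.58 CPM with sh2 in RS411, against 0.556 ± 0.314 with NT (SD, n = 3), a log2 change of 3.03 ± 0.54 (edgeR, adjusted p = 0.0332). In SEM, 10 of the 12 were tested. With sh2 1 was called higher and 3 lower, and with sh5 2 higher and 2 lower, where 27.9% and 21.3% of all genes were called. H2AFJ, a gene for an H2A variant, rose and H3F3A, a gene for H3.3, fell with both hairpins. H2AFJ had 5.71 ± 0.35 CPM with sh2 and 4.53 ± 0.50 with sh5, against 2.93 ± 0.20 with NT. H3F3A had 34.4 ± 0.71 CPM with sh2 and 34.9 ± 1.62 with sh5, against 42.5 ± 0.88 with NT. Of 20 histone chaperone genes, SEM with sh2 had 1 called in each direction, where 27.9% of all genes were called. ASF1B rose by 0.17 ± 0.06 and ASF1A, its paralog, fell by 0.21 ± 0.07 on the log2 scale (edgeR, adjusted p = 0.0432 and 0.0262).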

How the data were processed

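Total RNA libraries were stranded and depleted of ribosomal RNA, and 54-base reads were sequenced, per the labels' protocols. Trimmomatic, STAR, featureCounts and hg19 are named in the submitters' processing notes. The authors deposited raw counts for Reh, RS411, RCH and SEM, and size-factor normalized counts (a signal scale) for Reh and 697. Whole reads were recovered from the latter (100% of values above 0 within 0.001 reads) for CPM levels. In Reh, whose raw table lists Ensembl IDs, 63 of the histone genes were named by identical reads in the normalized table and the others by ID, so 4 that share a row's reads are uncertain. Gene names turned into dates (27 rows, 0.214% to 0.247% of reads) and 6 columns that match no sample were left out.

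edgeR 4.0.16 (TMM, filterByExpr, quasi-likelihood F-test) was fitted to all 3 arms of a line. In 697, limma 3.58.1 was fitted to log2(normalized count + 1) of genes with a mean of at least 10, so low genes' changes are understated. Both use Benjamini-Hochberg adjustment over all genes and were tested on simulated data. CPM levels are per 1000000 assigned reads, without TMM. Same-numbered libraries deviated together (every correlation of deviations over 0.1) in 697 (0.514 to 0.844), RS411 (0.335 to 0.63) and SEM (0.205 to 0.61). In RCH not every correlation passed that limit (0.00512 to 0.752). Reh has 2 pairs (0.718 to 0.766), too few to decide. Replicates differed beyond sampling noise. Alternatives were DESeq2 1.42.0, RLE factors, other filters and pseudocounts, 2 arms alone, the replicate block and each library left out.

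The genes, lists and tests were chosen with earlier results of these data known. Named genes were the called ones, the highest and lowest change, the family member with the most reads, polyadenylated and testis members, SLBP, NPAT and called genes of the lists. Genes that differed between lines, HIST1H1D, HIST1H1E, HIST2H4A, HIST3H2A and HIST1H4L were chosen after their values were seen.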

Additional observations from a re-analysis of the deposited data

How the results depend on the processing

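In Reh and 697, 0 histone genes were called under every alternative run that kept at least 2 libraries per arm. Of all genes in Reh, from 0 (EK against WT, 2 arms alone) to 6.43% (EK against EV, replicate block) were called in these runs. In 697 they ran from 0 (EK against WT, replicate block) to 1.2% (WT against EV, edgeR on recovered reads with the block). With the replicate block, the calls in RS411 were 1 (sh2 against NT), 2 (sh5 against NT) and 5 (sh2 against sh5) of 69. Of all genes, 14.5%, 5.41% and 9.06% were called. In SEM they were 7, 3 and 2 of 69, where 37.9%, 32.8% and 20.7% of all genes were called. In RCH they were 2 of 70 for sh2 against NT (HIST1H4H and HIST1H4L, both lower), where 9.29% of all genes were called. They were 0 for sh5 against NT (0.263% of all genes) and for sh2 against sh5 (1.96%). The RCH numbers met the rule for pairing only in part, with correlations from 0.00512 to 0.752, and those of Reh are too few to decide. In Reh the block gave an unadjusted p under 0.05 in 4 of 58 genes with EK against EV (18.4% of all genes), 13 with WT against EV (13.0%) and 3 with EK against WT (12.8%). Without the low-count filter the calls were 2, 2 and 3 of 74 in RS411, where 1281, 578 and 779 of all 38065 genes were called. In RCH they were 10 (all lower), 1 (higher) and 7 (all lower) of 73, where 1937, 199 and 704 of 39265 were called. In SEM they were 8, 2 and 3 of 75, where 5050, 3964 and 2317 of 37086 were called. DESeq2 called 1, 1 and 2 in RS411, where 939, 314 and 418 of all 17165 genes were called. In SEM it called 2 and 1 for sh2 against NT and sh2 against sh5, where 4701 and 2258 of 17042 were called. With 2 arms alone there was 1 call for RS411 sh5 against NT (197 of all 16554 genes) and there were 4 for SEM sh2 against NT (4270 of 16591). RLE factors and the stricter filter each gave 2 for SEM sh2 against NT, where 4731 of 17042 and 4215 of 13036 genes were called. The stricter filter gave 0 for RS411 sh2 against sh5, since HIST3H2BB was no longer tested. With each library left out the calls ran from 0 to 1 for RS411 sh2 against NT, 0 to 2 for RS411 sh2 against sh5, 0 to 1 for RCH sh2 against NT, 1 to 4 for SEM sh2 against NT, and 0 to 2 for SEM sh5 against NT and for SEM sh2 against sh5. At the higher count of each, all genes called were, in the same order, 1560 and 821 of 17457, 260 of 17785, 3994 of 17360, and 2880 and 1558 of 17525.

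Changes that turned sign did so with 1 library left out, and none was called. In Reh with EK, HIST1H1T ran from -0.37 (without EK replicate 1) to 0.80, with -0.13 without EV replicate 2. With WT it ran from -0.15 (without WT replicate 1) to 0.85, with -0.08 without EV replicate 2. For EK against WT in Reh, HIST2H3D ran from -0.52 (without EK replicate 1) to 0.84, with -0.02 without WT replicate 2, and HIST1H2BF from -0.44 to 0.16 (without EK replicate 2), with 0.10 without WT replicate 1. In 697 with EK, HIST2H2BC ran from -0.29 to 0.22 (without EK replicate 2), with 0.01 without EV replicate 2. HIST1H1T with WT ran from -0.90 to 0.15 (without WT replicate 1), with 0.08 without EV replicate 3, and HIST1H3D for EK against WT from -0.17 to 0.02 (without WT replicate 2). In RS411, HIST2H2AA3 with sh2 ran from -0.51 (without sh2 replicate 3) to 1.67. Except as said for the stricter filter, the cause was not tested.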

Other observations

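Of 25 G2 and M phase genes in SEM, 4 were called lower with sh2 and 5 with sh5, and none higher (edgeR). Of all genes, 27.9% and 21.3% were called in either direction. The medians of the list were near 0 (-0.03 and -0.02), with 10 of its 25 genes above 0 in each, beside 0.06 and -0.01 for the histone genes. CDK1, the kinase that starts mitosis, had 203.3 ± 5.19 CPM with sh2 and 202.0 ± 7.98 with sh5, against 241.0 ± 5.20 with NT (SD, n = 3). BUB1, a spindle checkpoint kinase, had 192.0 ± 13.2 CPM with sh2 and 198.0 ± 8.01 with sh5, against 229.4 ± 5.61 with NT. Of 34 S-phase genes, 2 were called lower with sh2, and 2 lower and 1 higher with sh5. The list's medians were 0.01 and -0.04, with 17 and 13 genes above 0. RFC5, a subunit of the clamp loader, was called lower with both. It had 108.8 ± 5.42 CPM with sh2 and 117.5 ± 2.47 with sh5, against 157.4 ± 7.88 with NT. CCNE2 was called higher with sh5, at 51.7 ± 5.0 CPM, against 41.3 ± 2.28 with NT. TERC, an RNA without a poly(A) tail, had 89.1 ± 5.23 CPM with sh2 and 75.2 ± 4.28 with sh5, against 108.4 ± 5.90 with NT. Of the 19 tested RNAs of its list, 1 was called lower with sh2 and 2 with sh5, while 13 and 9 lay above 0.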
